A study of Mus musculus with 2 samples.

Results

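The miR-344 genes are a group of microRNA (miRNA) genes that lie in 1 cluster on mouse chromosome 7. They were taken as every row of the count tables whose Ensembl identifier maps to a miRNA gene named Mir344, with or without a further letter or number, in the GENCODE M21 annotation of GRCm38. This rule gave 13 of 1973 miRNA genes and used no measured value. The libraries came from the neural tube of B6NCrl mouse embryos at embryonic day 14.5, untreated and with no genotype other than the strain named. There was 1 group of 2 libraries, where replicate 1 was pup 1 of dam 1 and replicate 2 was pup 1 of dam 2. The labels describe a single neural tube per library and also state mixed sex, and which of these holds was not settled here. The libraries held 3172235 and 3671915 reads on the sense strand of miRNA genes, and levels are given as counts per 1000000 such reads (CPM).

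A miRNA gene is transcribed as part of a longer RNA, from which a hairpin is cut out, and the hairpin yields a mature miRNA of about the length of the reads from its 5′ arm (5p), its 3′ arm (3p) or both. The mature miRNA guides Argonaute proteins to messenger RNAs that pair with its seed, the bases near its 5′ end, and lowers their output. The miR-344 genes are known from the developing rodent nervous system, and their cluster lies beside the imprinted genes Ndn, Magel2 and Mkrn3, which in humans belong to the Prader-Willi syndrome region. A seed is taken here as bases 2 to 8 of the mature sequence.

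The 13 genes carried 19 annotated mature sequences of 20 to 26 bases, with 11 different seeds. All 13 hairpins were found in RefSeq (GRCm38.p6), each with the same position and sequence as in GENCODE. The 3p sequences are shown first, 5′ to 3′ with the seed in capitals, because their seeds divide the family into subgroups. The entry for miR-410-3p, which is no miR-344 gene product, stands beside the pair whose seed it shares.
miR-344-3p: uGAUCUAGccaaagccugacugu
miR-344c-3p: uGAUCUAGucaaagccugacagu
miR-344d-3p: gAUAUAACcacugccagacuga
miR-344e-3p: gAUAUAACcaaagccugacuau
miR-410-3p: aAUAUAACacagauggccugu
miR-344h-3p: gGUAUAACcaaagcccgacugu
miR-344b-3p: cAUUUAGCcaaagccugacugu
miR-344g-3p: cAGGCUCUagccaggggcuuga
miR-344f-3p: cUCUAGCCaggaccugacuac

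The 8 miR-344 3p sequences had 6 seeds. Mir344, Mir344-2 and Mir344c shared GAUCUAG, and the 3p sequence of Mir344c differed from that of the first pair at 2 positions outside the seed. Counted from 1 at the 5′ end of miR-344c-3p, these were U9C and A21U. Mir344d-1, Mir344d-2, Mir344d-3 and Mir344e shared AUAUAAC, and miR-344d-3p and miR-344e-3p differed at 5 positions, with 0 of them in the seed. The change A2G, counted on miR-344e-3p, set the seed of miR-344h-3p apart, and miR-344b-3p had a seed of its own. The annotated start of miR-344f-3p lay 4 bases inside the stretch at which miR-344g-3p starts, although the Mir344f hairpin holds the first 15 bases of miR-344g-3p. The seeds of miR-344f-3p and miR-344g-3p therefore differed through the annotated start, and counts per gene do not show where the reads began.

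The 5p sequences were more alike. The seed GUCAGGC stood in 6 of the 10 5p sequences, which came from 7 genes, and it was found in no other mature sequence of the RefSeq table. The examples below are from the 4 genes that were detected and from Mir344, with the seed in capitals.
miR-344-5p: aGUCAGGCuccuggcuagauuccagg
miR-344b-5p: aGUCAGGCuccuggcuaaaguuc
miR-344c-5p: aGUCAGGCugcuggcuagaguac
miR-344f-5p: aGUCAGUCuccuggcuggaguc
miR-344e-5p: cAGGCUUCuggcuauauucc
The Mir344e hairpin also holds AGUCAGGC, but the annotated miR-344e-5p starts inside that stretch. Its seed therefore differed from GUCAGGC through the annotated start. The sequence miR-344i, with no arm named, holds AGUCAGGC too and starts ahead of it. The annotated miR-344e-5p and miR-344h-5p were the same 20 bases. The letters CAGGCU, searched on the sense strand, were held by 12 of the 13 hairpins (92.3%), all but Mir344d-2. Of all 1005 RefSeq hairpins, the 13 included, 53 held them (5.27%). The letters UCCUGG were likewise held by 12 of the 13, all but Mir344c, and by 76 of the 1005 (7.56%). Both words were picked because the members share them, so these shares are a description. Hairpin identity over the 78 pairs ran from 63.4% to 100%, with a median of 73.7%, and 7 pairs lay above 90%. The minimum free energy of folding per 100 bases was -54.6 kcal/mol at the median of the 13 hairpins, between -61.3 for Mir344g and -37.8 for Mir344c, against a median of -40.6 over all RefSeq hairpins.

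**Figure D1:**
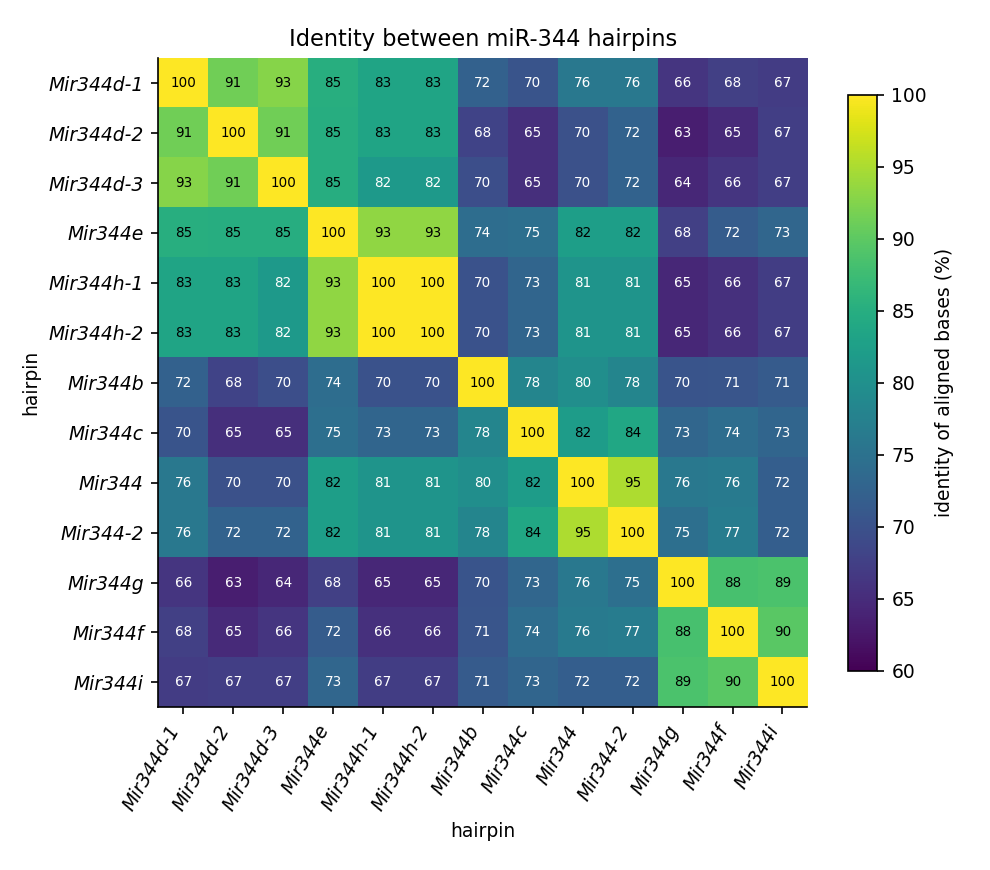
Percent identity of aligned bases for each pair of the 13 miR-344 hairpins, ordered along the chromosome on both axes, with the colour scale starting at 60%. Mir344h-1 and Mir344h-2 are identical, Mir344e stands at 93.3% to each of them, and Mir344 and Mir344-2 stand at 95.1%. The Mir344d genes form a block above 90%, and Mir344g, Mir344f and Mir344i form one between 88.4% and 89.7%.

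All 13 genes lay on the minus strand of chromosome 7 (GRCm38, the assembly also called mm10), between 61683124 and 62085310, a span of 402 kb with a median gap of 40632 bases between neighbours. Mir344d-3 (61726249 to 61726328), Mir344e (61735537 to 61735602), Mir344h-1, Mir344h-2, Mir344b (61790519 to 61790581), Mir344c (61837311 to 61837402) and Mir344 lay in introns of the long noncoding RNA gene A230057D06Rik on the same strand. Mir344-2 lay in an intron of A330076H08Rik, another noncoding gene, and Mir344g (61982289 to 61982359) overlapped an exon of it. Mir344d-1, Mir344d-2, Mir344f (62046181 to 62046248) and Mir344i overlapped no other annotated gene on their strand. The nearest protein-coding gene was Ndn, which encodes necdin, 261259 bases beyond Mir344i. Magel2 and Mkrn3 followed at 291700 and 332283 bases.

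The family had a low level in the neural tube by reads at a single position. Its 13 genes together had 91 counts in replicate 1 and 152 in replicate 2, or 28.7 and 41.4 CPM. This was 0.00287% of miRNA counts in replicate 1 (exact 95% interval 0.00231 to 0.00352) and 0.00414% in replicate 2 (0.00351 to 0.00485), a mean of 0.00350% ± 0.000899 (SD, n = 2). Reads that lie within a mature sequence shared between genes, such as either one of Mir344 and Mir344-2, are missing from these sums. The summed counts are thus lower limits for the family, and the share covers single-position reads only. Detection meant 10 counts or more in each library, and 4 of the 13 genes reached it (30.8%), Mir344f, Mir344e, Mir344c and Mir344b. Over all 1973 miRNA genes the share was 16.7%. A further 3 members had between 1 and 8 counts over both libraries, and 6 (46.2%) had no count in either, against 65.6% of all genes. In a bulk sample such as this, few cells with the miRNA and little of it in each cell cannot be told apart. No molecular identifiers are stated, so the intervals and detection limits here hold counting error alone.

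By reads at a single position, Mir344f was the highest member, with 35 counts in replicate 1 and 74 in replicate 2. Its level was 11.0 CPM (95% Poisson interval 7.69 to 15.3) and 20.2 CPM (15.8 to 25.3), a mean of 15.6 ± 6.45 (SD, n = 2). It made up 38.5% of the family's counts in replicate 1 (exact 95% interval 28.4 to 49.2) and 48.7% in replicate 2 (40.5 to 56.9). The levels of members without a mature sequence of their own, such as Mir344 and Mir344h-1, are not set by these counts. In the order of all 1973 genes by mean CPM Mir344f stood at place 279, and 15.2% of the 329 detected genes lay below it. The median level of detected genes was 170.2 CPM. The Mir344f hairpin is printed with both mature sequences in capitals.
Mir344f: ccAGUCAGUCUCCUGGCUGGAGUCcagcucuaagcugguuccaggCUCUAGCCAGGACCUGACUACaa

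Mir344e followed with 23 and 28 counts, 7.25 and 7.63 CPM (mean 7.44 ± 0.265, SD, n = 2). Its libraries both lay below the lower library of Mir344f. Its Poisson interval in replicate 1 (4.60 to 10.9 CPM) overlapped that of Mir344f, so the depth of that library does not separate them, while in replicate 2 (5.07 to 11.0 CPM) it did not overlap. Mir344c, of the GAUCUAG group, had 11 and 23 counts, 3.47 and 6.26 CPM (mean 4.87 ± 1.98, SD, n = 2). Mir344b had 14 and 19 counts, 4.41 and 5.17 CPM (mean 4.79 ± 0.538, SD, n = 2). The ranges of Mir344c and Mir344b overlapped, so their order is not set by these libraries, while both lay below the lower library of Mir344e. The Poisson intervals of Mir344e, Mir344c and Mir344b overlapped within each library, so the depth does not separate them. CPM was not divided by gene length, since a read is 1 mature miRNA whatever the length of the gene. Per 100 bases of gene, Mir344b (7.61 CPM) lay above Mir344c (5.29 CPM), and this was the only change in the order of the 7 members with counts.

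The remaining members with counts were at the edge of detection. Mir344d-3 had 4 counts in each library (1.26 and 1.09 CPM), Mir344g had 4 and 3 counts (1.26 and 0.817 CPM), and Mir344i had 0 and 1. Mir344d-3 and Mir344g did not differ beyond their spread, and both lay below Mir344b in each library. In replicate 1 their Poisson intervals, up to 3.23 CPM, overlapped that of Mir344b, from 2.41 CPM, so the depth does not separate them. In replicate 2 the intervals did not overlap that of Mir344b. Where no read was counted, the level of 3 counts gives the upper limit, at 0.946 CPM for the library of dam 1 and 0.817 CPM for that of dam 2. This is close to a one-sided 95% limit, and the two-sided Poisson intervals of a count of 0 reach further, to 1.16 and 1.00 CPM. Mir344, Mir344-2, Mir344d-1, Mir344d-2, Mir344h-1 and Mir344h-2 were below this limit in both libraries for reads at a single position. No member had a read on the other strand.

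**Figure D2:**
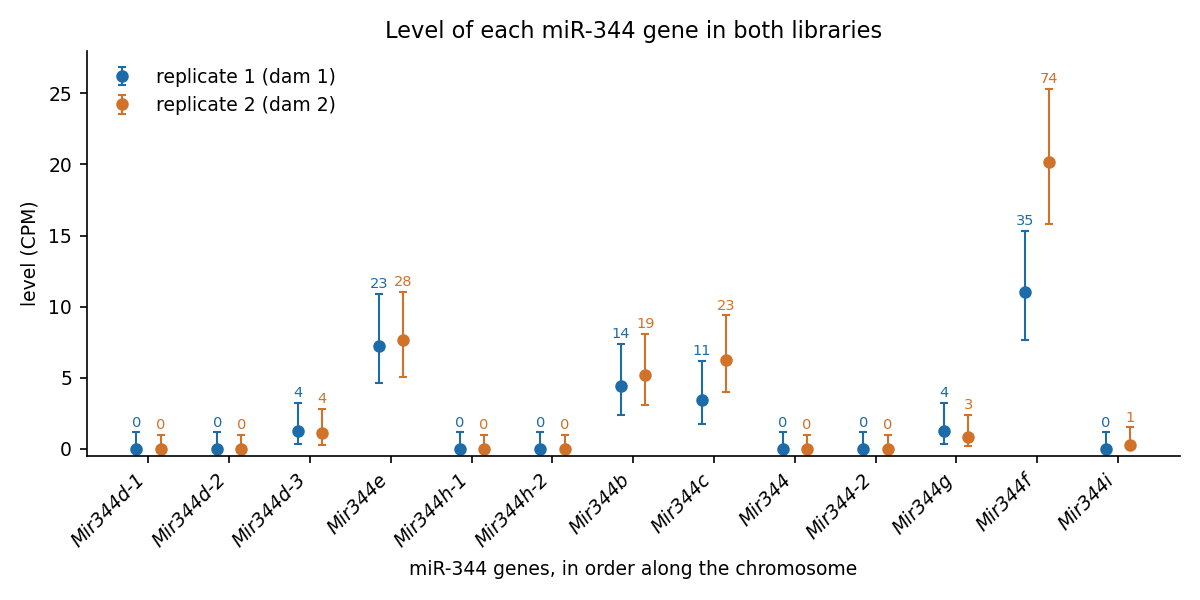
Level in CPM of each miR-344 gene in replicate 1 (blue) and replicate 2 (orange), with points for the level, bars for the 95% Poisson interval and the raw count above each bar. By reads at a single position, Mir344f is highest in both libraries, at 11.0 and 20.2 CPM. Mir344e, Mir344b and Mir344c lie between 3.47 and 7.63 CPM, and the other 9 genes are at 1.26 CPM or below.

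A read that fits several positions entered no gene count, and such reads were 32.4% and 33.3% of all reads of the libraries, so the copies within the family bear on which members could be counted. Mir344h-1 and Mir344h-2 were identical over all 60 bases, and 0 of their 41 windows of 20 bases were absent from other miRNA genes. A read that lies inside either gene therefore fits both. The hairpin sequence is printed for Mir344e, above the Mir344h sequence, because the 5p sequence in capitals is the same in all 3 genes.
Mir344e: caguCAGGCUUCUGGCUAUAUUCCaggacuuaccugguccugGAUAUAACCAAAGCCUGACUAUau
Mir344h-1: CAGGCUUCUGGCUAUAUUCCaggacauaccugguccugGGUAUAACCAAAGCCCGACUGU
A mature read that was counted for Mir344e without a mismatch was thus the 3p sequence, or reached past the shared 5p bases. Mir344 and Mir344-2 carried the same 5p and the same 3p sequence, so neither had a mature sequence of its own. The 3p sequence of the Mir344d genes stood in Mir344d-1, Mir344d-2 and Mir344d-3, and in the neighbouring genes Gm23962 and Gm23490. The 5p sequences of the 3 Mir344d genes differed from each other, and Mir344d-3 was the only 1 of these with reads.

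Members can be ordered by how many of their mature sequences were found in no other GENCODE miRNA gene, of 2202 searched. For Mir344b, Mir344c, Mir344f and Mir344g this held for every mature sequence, and 4 of these 4 genes had counts, 3 of them detected. For Mir344e and the 3 Mir344d genes it held for 1 of 2 mature sequences, and 2 of the 4 had counts, 1 of them detected. For Mir344, Mir344-2, Mir344h-1, Mir344h-2 and Mir344i it held for none, and 1 of the 5 had a count, the single read of Mir344i. Mir344g, with both mature sequences its own among miRNA genes and 47 of 52 windows unshared, had 4 and 3 counts. How many reads at several positions belonged to the family was not tested, since those reads are given only as a total. Near copies remain, because miR-344f-5p differed by 1 base from a stretch of Mir344i, miR-344g-5p likewise, and miR-344b-3p and miR-344c-3p by 2 bases from stretches of Mir344 and Mir344-2. Sequence outside annotated genes was not searched.

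**Figure D3:**
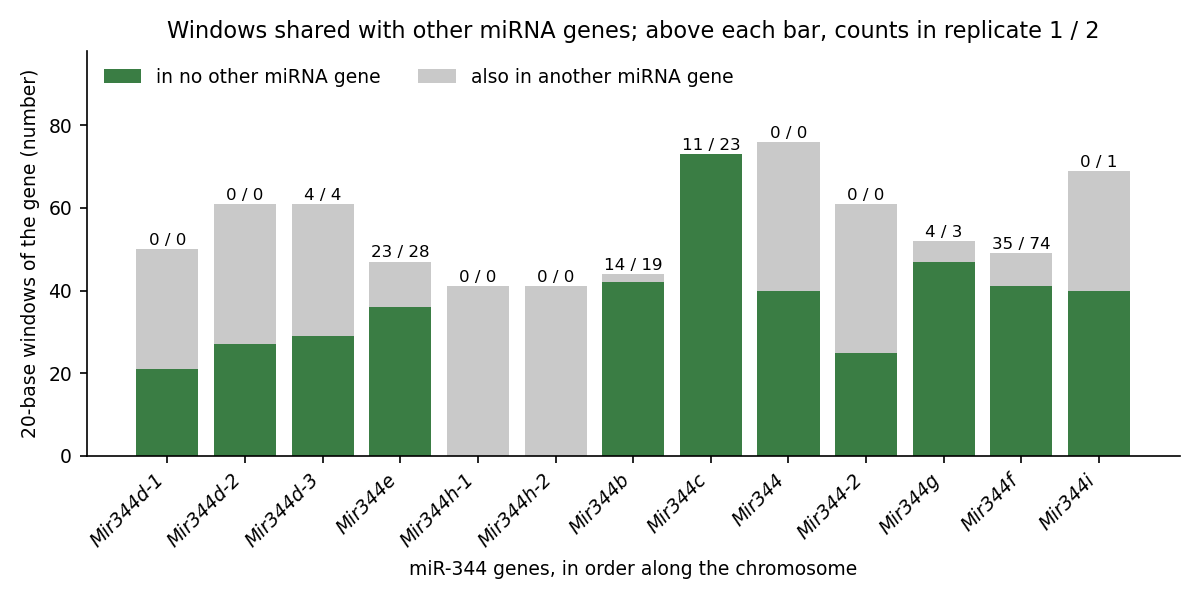
Number of 20-base windows in each miR-344 gene that are found in no other GENCODE miRNA gene (green) or also in another (grey), with counts in replicate 1 and replicate 2 above each bar. Mir344h-1 and Mir344h-2 have 0 windows of their own and no counts, Mir344c has 73 of 73 and counts of 11 and 23, and Mir344 has 40 of 76 and no counts.

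Another 7 miRNA genes of GENCODE lay within 500 kb of the cluster, all on the minus strand and without a miRNA name, and 6 of them had no count. The exception was Gm23873 (chromosome 7, 61750468 to 61750537), with 24 counts in replicate 1 and 31 in replicate 2, 7.57 and 8.44 CPM (mean 8.0 ± 0.62, SD, n = 2). Its range overlapped that of Mir344e, so their order is not set by these libraries, and only Mir344f lay above both in each library. Its closest member was Mir344, at 83.6% identity over 73 aligned positions. The gene sequence is printed as GENCODE gives it, with capitals for the 22 bases it shares with Mir344d-1.
Gm23873: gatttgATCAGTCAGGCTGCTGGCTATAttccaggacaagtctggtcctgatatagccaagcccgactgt
The 6 without counts, Gm25533, Gm23962, Gm23490, Gm22466, Gm23917 and Gm24923, were 84.8% to 96.6% identical to their closest member. Of them Gm23962 and Gm23490 held miR-344d-3p and Gm24923 held miR-344i. With these 7 genes added, the locus of 20 miRNA genes had 115 and 183 counts, 36.3 and 49.8 CPM.

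**Figure D4:**
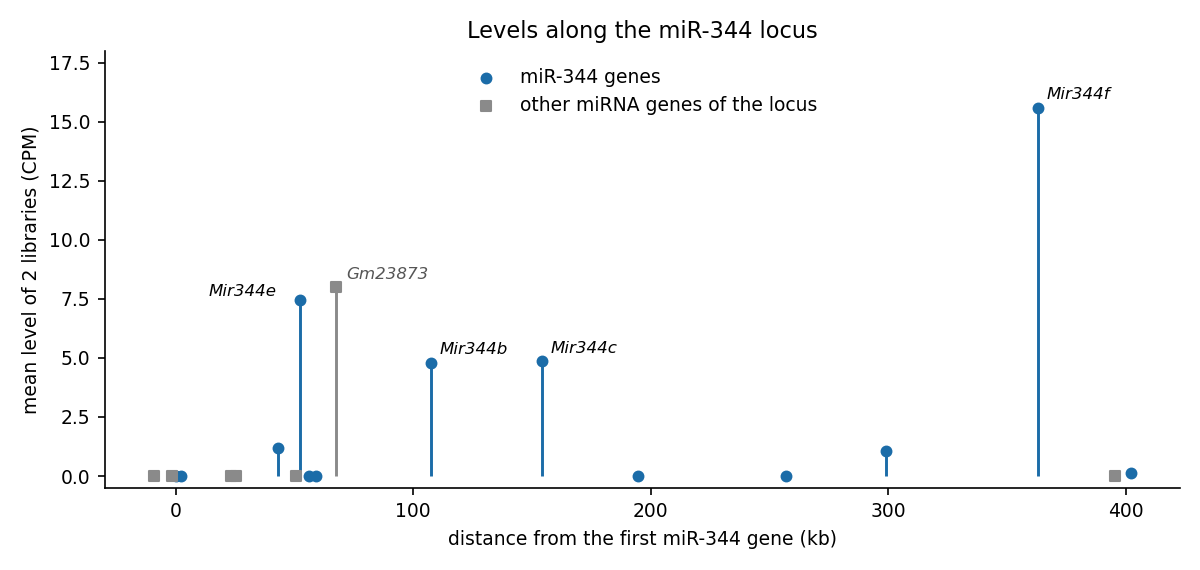
Mean level in CPM of the miR-344 genes (blue) and of the other miRNA genes of the locus (grey squares) against the distance in kb from the first miR-344 gene. Mir344f, toward the right end, stands highest at 15.6 CPM, and Gm23873 at 8.0 CPM stands beside Mir344e at 7.44 CPM.

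The seed AUAUAAC of miR-344d-3p and miR-344e-3p was shared by miR-410-3p, from the imprinted Dlk1-Dio3 miRNA cluster on chromosome 12. Mir410 (109743715 to 109743795) had 349 counts in replicate 1 and 596 in replicate 2, 110.0 and 162.3 CPM (mean 136 ± 37.0, SD, n = 2). This was 15.2 and 21.3 times the count of Mir344e. The 4 miR-344 genes with the seed made up 7.18% of the counts of genes carrying it in replicate 1 (exact 95% interval 4.79 to 10.3) and 5.10% in replicate 2 (3.51 to 7.12). These shares count whole genes, 5p reads included, and leave out the reads of miR-344d-3p, which fits several positions. The seed of miR-344g-3p was shared by Mir7070, with 4 and 6 counts. The other 9 seeds of the family were found in no other mature sequence of the RefSeq table.

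Of the 4 members that could be compared between the libraries, 0 were called different. For the 360 genes with 10 counts or more in either library, an exact binomial test (two-sided) set the pair of counts against TMM-scaled library sizes. TMM is the trimmed mean of M-values, a scaling that rests on the genes that change least. A call needed a 2-fold difference and a p under 0.05 after Benjamini-Hochberg adjustment over the 360 genes. Of the 4 members, 0 passed, where 10.3% of all genes tested were (3.89% higher in replicate 1 and 6.39% higher in replicate 2). At an unadjusted p below 0.05 without the fold minimum, 1 of the 4 passed, against 59.2% of all genes. The mean levels of the 4 members, 4.79 to 15.6 CPM, lay below the median of 170.2 CPM over detected genes. The test separates less at low counts, so these shares do not show the members to be steadier than other genes. In edgeR's exact test with an assumed coefficient of variation of 0.2, 0 of the 4 were called, against 21 of the 360 genes. In that test 0 of the 4 had an unadjusted p below 0.05, and the share of all genes at that p is not given here. The 4 members had a median log2 ratio of replicate 1 over replicate 2 of -0.31, and all 360 genes one of -0.02. Each dam gave 1 library, so the difference between dams has no replicate check.

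Mir344f was 1.56-fold higher in replicate 2 after scaling, with a log2 ratio of -0.65 (95% interval -1.28 to -0.06; exact binomial test, two-sided, adjusted p = 0.0461 by Benjamini-Hochberg). It fell short of the 2-fold minimum, and its adjusted p ranged from 0.00549 to 0.899 over the alternatives. It was 0.00549 with scaling by total counts, 0.0568 with DESeq2 size factors, 0.0712 without the filter on low counts and 0.899 in edgeR's exact test with the assumed coefficient of variation. Mir344c had a log2 ratio of -0.61 (-1.82 to 0.45), Mir344b one of 0.00 (-1.12 to 1.06) and Mir344e one of 0.15 (-0.72 to 0.99). Scaling by total counts moved every ratio, members or not, by about -0.21, so that Mir344e turned to -0.07 and Mir344f stood at -0.86. The intervals of Mir344b, Mir344c and Mir344f reach beyond 2-fold, so a difference of that size is not excluded for them.

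**Figure D5:**
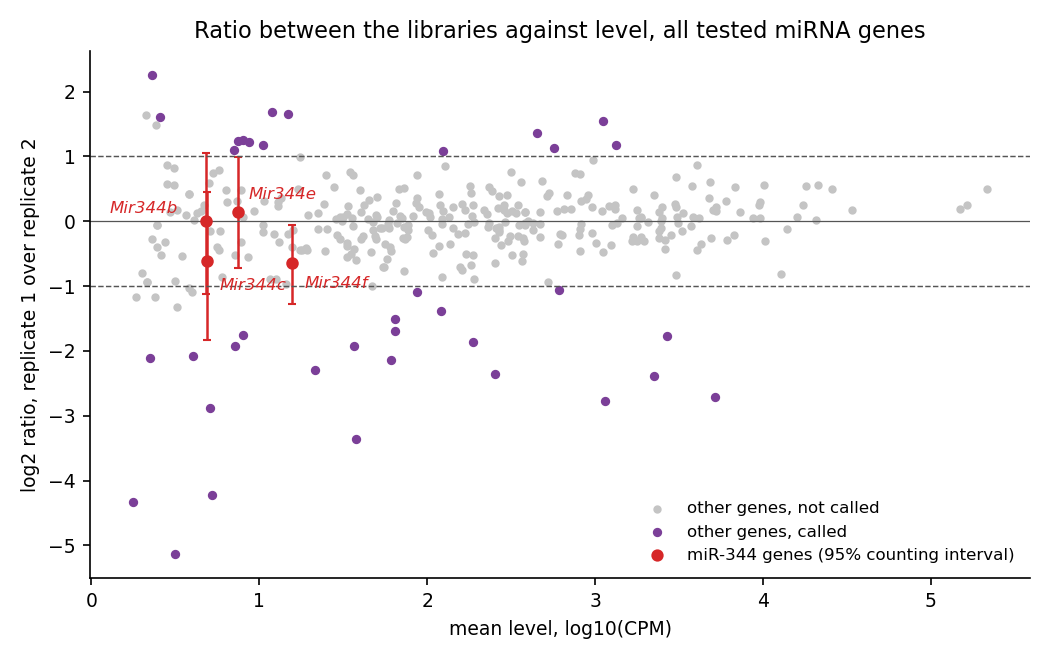
Log2 ratio of replicate 1 over replicate 2 against the log10 of the mean level in CPM for the 360 tested miRNA genes, with called genes in purple, dashed lines at 2-fold and the 4 tested miR-344 genes in red with 95% counting intervals. Mir344b, Mir344c, Mir344e and Mir344f lie at the low end of the levels and between -0.65 and 0.15, and the intervals of Mir344b, Mir344c and Mir344f reach past the lower dashed line.

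Marker miRNAs describe the tissue in which these levels were measured. Of 18 neuronal miRNA genes 16 were detected, led by Mir137 at 9457 ± 193 CPM (SD, n = 2), and of 6 measured neural progenitor genes 5 were detected, led by Mir135b at 4762 ± 352 CPM. Of the 17 neuronal genes tested 2 were called, both higher in replicate 1, where 10.3% of all 360 tested genes were called. Sensory miRNAs (Mir96, Mir183 and, highest, Mir182) had a summed level of 2109 CPM in the first library and 15050 CPM in the second, with 3 of 3 called, and mesenchymal miRNAs, led by Mir143, one of 1197 and 4894 CPM, with 5 of 5 tested genes called. The level of Mir344f was higher in the same library as these lists, and their part in its ratio was not tested. Of 4 measured blood miRNA genes, led by Mir451a, 4 were detected, summing to 149 and 275 CPM, with 1 called and higher in replicate 2. Of 4 measured muscle genes 1, Mir206, was detected and 2 had no count. Reads that fit several positions entered none of these counts, so a missing count does not show absence.

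The genes most like Mir344f in level, by the distance between the pairs of log2(CPM + 1) values over 2 libraries, were Mir144, Mir8114 and Mir450b, at distances of 0.173, 0.289 and 0.292. Mir144, a red cell miRNA gene, had 39 and 69 counts (12.3 and 18.8 CPM). Mir8114 had 43 and 79 counts, and Mir450b, of an X-linked miRNA cluster, had 28 and 74. None of these 3 was called between the libraries. They were picked for levels close to those of Mir344f in each library, so this outcome is no separate check. Mir450b missed only the 2-fold minimum, with log2 -0.96 (exact binomial test, two-sided, adjusted p = 0.00388 by Benjamini-Hochberg). In the same test Mir144 and Mir8114 had adjusted p-values of 0.252 and 0.155. The distance measure rests on 2 libraries.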

How the data were processed

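Deposited values were raw read counts per gene on the sense strand, the other strand and either strand, 1 table per library, from alignments to mm10 with annotation M4, per the text notes deposited with the data. The strand of each column was read from the values. No aligner or trimming step is named in the sources used here. The 4 rows that name no gene stayed out of library sizes. Symbols and positions came from GENCODE M21 (1894 of 1973 identifiers matched) and mature sequences from RefSeq GRCm38.p6. The sense column was used as CPM. Ratios used TMM (edgeR 4.0.16, R 4.3.3), a prior count of 0.5 and exact binomial tests with exact 95% intervals (scipy 1.17.1). These were tried on counts simulated with counting error alone, so the trial does not cover variation between dams. The edgeR quasi-likelihood test could not be fitted with 1 library per dam, so p-values cover counting error only. Alternatives used DESeq2 1.42.0 size factors, other filters, strands and denominators. Hairpins were aligned with Biopython 1.88 and folded with RNAfold 2.7.2. Members and lists were chosen with earlier results of these data known. Text names all members, other genes with a detected member's seed, miRNA genes within 500 kb, the 3 genes most like the highest member and the highest of each marker list. Mir7070 shares the seed of an undetected member and is named after its values were seen. Results of the oligodendrocyte, cartilage, endothelial and liver lists are given with the limits in the closing section.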

Additional observations from a re-analysis of the deposited data

How the results depend on the processing

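Over 8 alternatives (scaling by total counts, DESeq2 size factors, reads on either strand, no filter on low counts, a filter of 100 counts, identical mature sequences summed, a prior count of 2 and an assumed coefficient of variation of 0.2), 28 of 28 recomputed member ratios stayed uncalled, and the filter of 100 counts left 0 members to test. Summing identical mature sequences could not move a tested member, so its rows are no check. The genes joined to Mir344e had no counts, and Mir344b, Mir344c and Mir344f were joined to none. The prior count enters the ratio but not the p-value of the binomial test. Signs of the ratios nearest 0 are not fixed, with Mir344b between -0.22 and 0.03 and Mir344e between -0.07 and 0.16. Over all genes the calls went from 37 to 21 both with that filter, which tests fewer genes, and with the assumed coefficient of variation. The family share was 0.00184% with all reads as denominator, which is larger by construction, and 0.00287% to 0.00414% with either library left out. With at least 100 counts in both libraries 0 members were detected, with at least 3 counts 6, and with either library left out 4. Per 100 bases of gene, 2 members changed place. No test was possible with a library left out, and no paired analysis was possible because the design has 1 group. Other marker lists: oligodendrocyte genes, led by Mir219a-2, 3 of 3 detected and 0 called (median log2 ratio 0.15), cartilage (Mir140) 0.00, endothelial (Mir126a) -0.82 and liver (Mir122) 0.49, each of the last 3 with 1 gene tested and not called.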
